A study of Mus musculus with 6 samples.

Results

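Genes of the p53 response and of the apoptosis machinery were followed in primary vascular smooth muscle cells (VSMCs) of the mouse, which form the muscular layer of arteries. They were 37 genes chosen by name from the p53 pathway, the Bcl2 family, the caspases and the apoptosome. All 37 have a row among the 24970 rows of the expression table, and 36 reached the mean of 1 FPKM needed for a test. FPKM is a fragment count corrected for transcript length and for sequencing depth. The exception was Bik, a BH3-only gene, listed at 0.109, 0.130 and 0 FPKM in siScrambled and at 0.0577, 0 and 0 FPKM in siPfkfb3.

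The cells were isolated with collagenase from 6-week-old male C57BL/6 mice and grown in medium with 10% serum. All 6 samples received siRNA at 20 nM by lipofection and were taken at 48 h: 3 received scrambled siRNA (siScrambled) and 3 an siRNA that targets Pfkfb3 (siPfkfb3). Pfkfb3 makes fructose 2,6-bisphosphate, an activator of glycolysis, and the comparison asks what changes when it is depleted. The genotype label is WT for the controls and names PFKFB3, PFKFB4 and PFKFB5 knockdown for siPfkfb3 replicates 1, 2 and 3, while all 3 titles name PFKFB3. No untransfected sample was analysed here, and nothing in the labels says that replicates came from separate animals. The p-values therefore cover the variation among these 6 samples alone, and that variation may be technical.

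p53 is a transcription factor that is held at a low level by the ubiquitin ligase Mdm2 and accumulates after DNA damage and other stress. It switches on genes of growth arrest and DNA repair, and genes that promote cell death. Mitochondrial apoptosis is set by the Bcl2 family. BH3-only proteins bind the pro-survival members and free or activate Bax and Bak1, which open the outer mitochondrial membrane. Cytochrome c then leaves the mitochondrion and assembles with Apaf1 and caspase-9 into the apoptosome. In arteries, death of smooth muscle cells is known from atherosclerotic plaques and aneurysms.

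Pfkfb3 stood at 4.03, 4.02 and 3.86 FPKM in siScrambled and at 1.92, 1.65 and 1.77 FPKM in siPfkfb3. Its log2 fold change was −0.84 ± 0.07 (SE; limma, adjusted p = 2.66e-05), and a two-sided exact permutation test over the 6 samples returned p = 0.1, the lowest it can reach with 3 against 3. Libraries held 11189 to 11247 genes at 1 FPKM or more, and the number of reads is unknown. Mitochondrial transcripts made up 6.48% to 7.35% of the summed FPKM. The smooth muscle markers Acta2 and Tagln were at 659 FPKM or more in every library, whereas Myh11 stood at 15.4 to 16.7 FPKM. Of the 8 smooth muscle markers, Acta2 and Cnn1 rose, 6 were not called and 5 of those lay lower in every siPfkfb3 sample, with a median log2 fold change of −0.08 over the 8. Their sum of 2129 to 2228 FPKM in siScrambled and 2469 to 2540 FPKM in siPfkfb3 is mostly Acta2, at 1299.8 to 1378 and 1666 to 1719 FPKM. Fibroblast markers were also present, with a sum of 651 to 706 FPKM over 5 genes in siScrambled and 608 to 623 FPKM in siPfkfb3. That sum is mostly Dcn, which was not called, and Lum, which was lower. Dpt and Pi16 were also lower and Pdgfra was higher. The mean of Dpt was 57.4 FPKM in siScrambled and 30.8 FPKM in siPfkfb3 (limma, adjusted p = 3.88e-06). The 5 endothelial markers summed to at most 1.17 FPKM, and the 6 leukocyte markers to 14.8 to 16.6 FPKM, mostly Lyz2, with Ptprc at 0.0179 FPKM or less. The part of these cell types in the values that follow was not tested. In bulk RNA, fewer cells of a type and less RNA per cell cannot be told apart.

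Of the 36 tested members, 9 were higher in siPfkfb3, 6 were lower and 21 did not pass the test. The threshold was a limma adjusted p under 0.05 over all 11240 tested genes. The share called, 41.7%, was near the 36.3% of all tested genes (15.8% higher and 20.5% lower). The median log2 fold change was −0.06 over the members and −0.02 over all tested genes, and the median absolute change 0.15 and 0.14. The 3 values of one group lay entirely above those of the other for 22 members, against 49.5% of all tested genes. Under TPM scaling the split was 10 higher and 4 lower.

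**Figure D1:**
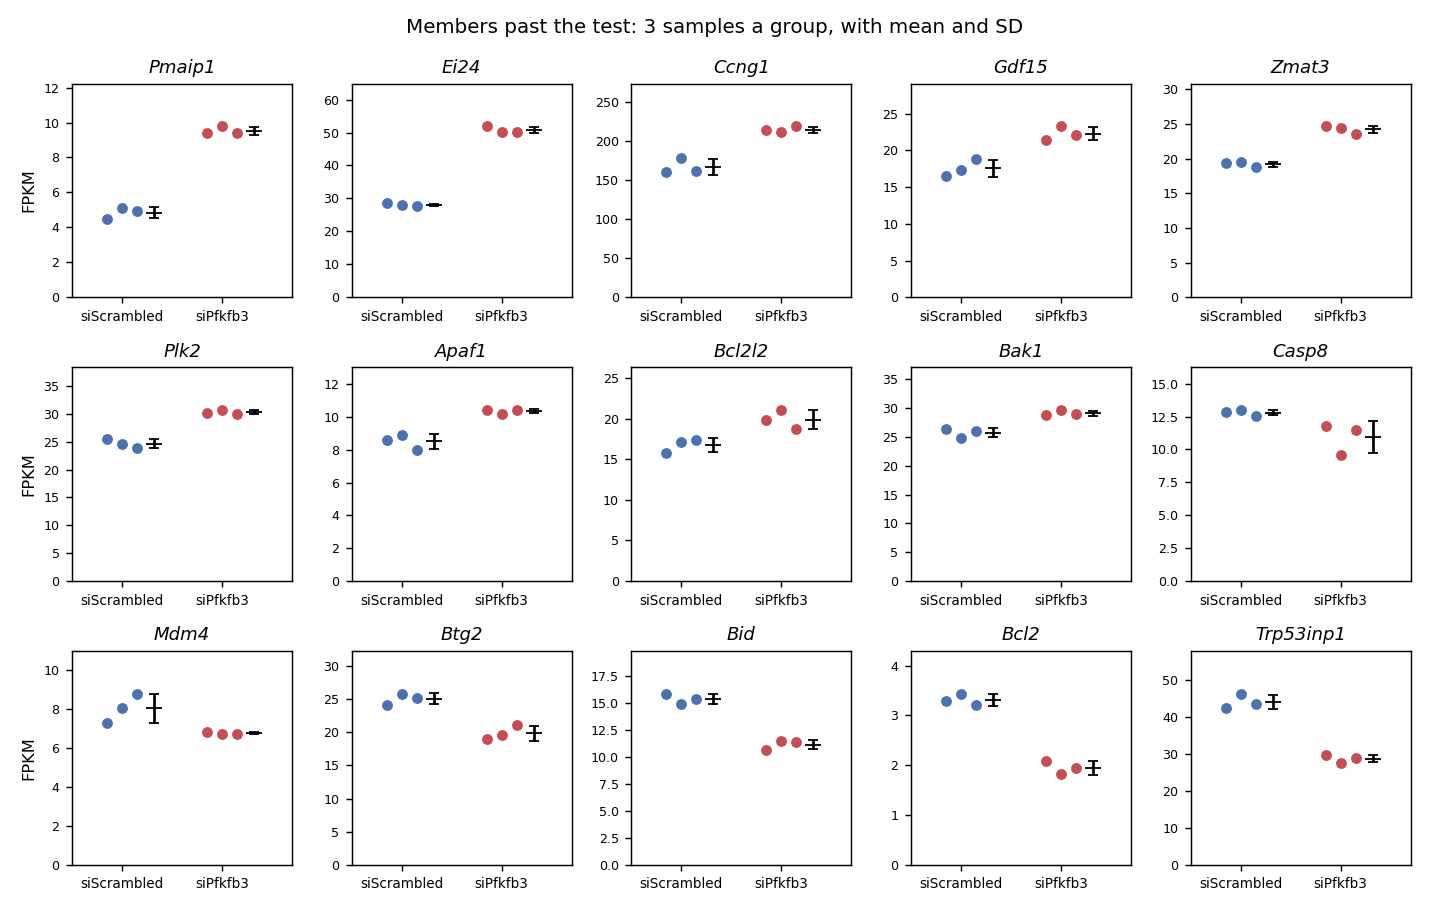
FPKM of the 15 members past the test in each sample (y axis from 0; blue points siScrambled, red points siPfkfb3; black marks mean and SD, n = 3 each), ordered from the highest to the lowest log2 fold change. Pmaip1 and Ei24 show the widest separation upward and Trp53inp1, Bcl2 and Bid downward, and no panel has overlapping groups.

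The p53 gene itself and its main antagonist did not pass the test. Of the 3 genes of p53 and its regulators 33.3% were called, against 36.3% of all tested genes. Trp53 (chromosome 11, 69580359 to 69591873, plus strand; GRCm38) stood at 35.95, 35.0 and 37.4 FPKM in siScrambled and at 34.4, 32.5 and 33.5 FPKM in siPfkfb3. Every siPfkfb3 value lay below every control, but the log2 fold change of −0.11 (95% interval −0.20 to −0.01) missed the threshold (limma, adjusted p = 0.0723). Mdm2, which degrades p53 and is itself a p53 target, stood at 36.4, 40.6 and 37.7 FPKM against 35.6, 35.8 and 35.3 FPKM. Its log2 fold change was −0.10 (95% interval −0.20 to 0.00; limma, adjusted p = 0.122). Mdm4, which holds back the activity of p53, was the one gene of the 3 called: 7.29, 8.05 and 8.78 FPKM in siScrambled and 6.81, 6.72 and 6.73 FPKM in siPfkfb3. The groups do not overlap, and the controls spread more than the siPfkfb3 samples. The change of −0.22 ± 0.07 (SE; limma, adjusted p = 0.0326) lost its call under TPM, without the filter on low values, and without siScrambled replicate 2 or 3 or any 1 of the siPfkfb3 replicates (adjusted p of 0.0545 to 0.118).

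Among the 12 p53 targets of arrest, repair and signalling, 5 were higher, 2 lower and 5 not called, with a median log2 fold change of 0.17. The share called was 58.3%, against 36.3% of all tested genes (15.8% higher and 20.5% lower). Ei24 (chromosome 9, 36779159 to 36797393, minus strand), a membrane protein of the endoplasmic reticulum induced by etoposide, stood at 28.5, 28.0 and 27.7 FPKM in siScrambled and at 51.9, 50.2 and 50.2 FPKM in siPfkfb3. The groups lie far apart relative to their spread. The mean rose 1.81 times (log2 fold change 0.83 ± 0.04 SE; limma, adjusted p = 7.58e-07), the 190th largest absolute change of the 11240 tested genes. An antisense transcript, Gm26787, overlaps exons of Ei24 and whether counting used strand is not given in the sources used here, so its value carries that uncertainty.

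Ccng1, cyclin G1, which recruits a phosphatase to Mdm2, was the most abundant of the 37 genes at 161, 179 and 162 FPKM in siScrambled and 214, 212 and 219 FPKM in siPfkfb3. It rose by 0.36 ± 0.04 on the log2 scale (SE; limma, adjusted p = 0.000162). Zmat3, an RNA-binding zinc finger protein, stood at 19.4, 19.4 and 18.8 FPKM against 24.7, 24.4 and 23.6 FPKM, a rise of 0.32 ± 0.04 (SE; limma, adjusted p = 0.000354). Both genes are clear of overlap between the groups. Plk2, a polo-like kinase of centriole duplication, went from 25.5, 24.5 and 23.9 to 30.2, 30.7 and 30.1 FPKM (log2 fold change 0.29 ± 0.04 SE; limma, adjusted p = 0.000550). Gdf15, a secreted stress cytokine of the TGF-beta family, went from 16.5, 17.3 and 18.8 to 21.5, 23.3 and 22.1 FPKM (log2 fold change 0.33 ± 0.06 SE; limma, adjusted p = 0.00155). These 4 rises were between 23.0% of the control mean for Plk2 and 28.5% for Ccng1, against 81.1% for Ei24.

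The 2 targets that fell were Trp53inp1 and Btg2. Trp53inp1 (chromosome 4, 11156431 to 11174379, plus strand), a stress protein that promotes p53 phosphorylation and autophagy, stood at 42.4, 46.2 and 43.5 FPKM in siScrambled and at 29.6, 27.6 and 29.0 FPKM in siPfkfb3. It fell by 34.8% (log2 fold change −0.60 ± 0.05 SE; limma, adjusted p = 1.15e-05), the largest fall of the 36 on the log2(FPKM + 1) scale. Btg2, an antiproliferative protein, went from 24.2, 25.8 and 25.2 to 18.9, 19.5 and 21.1 FPKM (log2 fold change −0.32 ± 0.05 SE; limma, adjusted p = 0.000979). Its groups do not overlap either.

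The other 5 targets did not pass the test. They were Aen, an apoptosis-enhancing nuclease (0.22), Rrm2b, the p53-inducible subunit of ribonucleotide reductase (0.11), Polk, a translesion polymerase (−0.08), Perp, a membrane protein of cell junctions (−0.08), and Phlda3, an inhibitor of Akt (−0.16), as log2 fold changes. Phlda3 was abundant, with 131, 135 and 148 FPKM in siScrambled and 132, 107 and 135 FPKM in siPfkfb3. Single samples stand apart in both Phlda3 and Aen, namely siPfkfb3 replicate 2 for Phlda3 and siPfkfb3 replicate 3 for Aen at 31.1 FPKM, against 23.1 and 24.9 FPKM in the other siPfkfb3 samples.

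RefSeq promoter windows (GRCm38.p6, 250 bases before to 50 after each annotated start) were read for the 10-base p53 decamer, the unit that a p53 dimer binds. The consensus decamer is its own reverse complement, so both strands are covered, and a full site was taken as 2 decamers with at most 13 bases between them. Windows exist for 31 of the 37 members, all but Bik, Perp, Zmat3, Trp53inp1, Rrm2b and Pmaip1. A decamer occurs in those of 7 (22.6%), against 9.55% of 27025 genes with a window, and a full site in 0 of the 31, against 0.0740% of all. A gene can have several windows and counts if any of them matches. The members had 43 windows and all genes 32851, so the shares are not matched for windows per gene. The 7 are Trp53, Mdm2, Bax, Aen, Polk, Ccng1 and Ei24, that is 2 of the 7 higher members with a window, 0 of the 5 lower and 5 of the 19 not called. The windows of Ei24 and Ccng1, which rose, and of Mdm2, which was not called, are shown with the decamer in capitals, at chr9:36797285-36797584, chr11:40755237-40755536 and chr10:117710709-117711008, all on the minus strand and written 5′ to 3′. The decamer begins at position −10 in Ei24, −185 in Ccng1 and −186 in Mdm2, counted from the start site as 0. A match is a description of these letters and not a binding site.
Ei24: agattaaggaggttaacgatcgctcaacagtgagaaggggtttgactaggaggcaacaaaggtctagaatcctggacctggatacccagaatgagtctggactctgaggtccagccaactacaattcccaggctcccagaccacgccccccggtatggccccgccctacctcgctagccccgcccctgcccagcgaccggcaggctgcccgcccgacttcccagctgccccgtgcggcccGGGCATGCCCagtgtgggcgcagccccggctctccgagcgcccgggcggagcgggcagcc
Ccng1: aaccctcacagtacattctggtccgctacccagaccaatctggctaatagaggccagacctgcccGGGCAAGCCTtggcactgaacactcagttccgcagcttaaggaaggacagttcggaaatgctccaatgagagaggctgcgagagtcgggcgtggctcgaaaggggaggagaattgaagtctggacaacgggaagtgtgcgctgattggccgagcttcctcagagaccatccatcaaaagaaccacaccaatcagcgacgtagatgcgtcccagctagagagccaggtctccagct
Mdm2: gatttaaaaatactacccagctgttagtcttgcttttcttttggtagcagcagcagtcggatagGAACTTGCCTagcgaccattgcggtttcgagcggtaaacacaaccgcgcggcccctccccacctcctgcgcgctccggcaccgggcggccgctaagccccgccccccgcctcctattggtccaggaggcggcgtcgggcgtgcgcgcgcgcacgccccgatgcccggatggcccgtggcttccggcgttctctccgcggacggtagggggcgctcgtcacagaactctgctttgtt

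Neither death receptor among the members passed the test, which 36.3% of all tested genes passed. Fas, which engages caspase-8 when its ligand binds, stood at 22.8, 21.0 and 22.3 FPKM in siScrambled and at 24.6, 23.7 and 24.2 FPKM in siPfkfb3. The groups do not overlap, and the log2 fold change of 0.13 ± 0.05 (SE) came close to the threshold (limma, adjusted p = 0.0540). It passed under TPM, TMM and quantile scaling and with a filter at 5 FPKM (adjusted p of 0.0276 to 0.0484). Eda2r, the receptor of ectodysplasin A2, ranged from 12.0 to 13.9 FPKM over all 6 samples, with overlapping groups (log2 fold change −0.08).

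Of the 5 tested BH3-only genes, 1 was higher, 1 lower and 3 not called. The share called was 40%, against 36.3% of all tested genes (15.8% higher and 20.5% lower). Pmaip1 (chromosome 18, 66458533 to 66465565, plus strand), which encodes Noxa, a binder of Mcl1, stood at 4.48, 5.09 and 4.94 FPKM in siScrambled and at 9.41, 9.78 and 9.40 FPKM in siPfkfb3. The lowest siPfkfb3 sample lay well above the highest control. The mean rose 1.97 times (log2 fold change 0.85 ± 0.06 SE; limma, adjusted p = 8.71e-06), beside Ei24 the largest rise of the 36. Ei24 was ahead of Pmaip1 without siScrambled replicate 1 (0.84 and 0.81) and without siPfkfb3 replicate 2 (0.842 and 0.835).

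Bid (chromosome 6, 120891930 to 120916853, minus strand), which carries the caspase-8 signal to the mitochondrion, stood at 15.8, 14.9 and 15.3 FPKM in siScrambled and at 10.7, 11.5 and 11.3 FPKM in siPfkfb3. It fell by 27.4% (log2 fold change −0.43 ± 0.05 SE; limma, adjusted p = 0.000169), and its groups are clearly separate. Its exons overlap those of Bcl2l13 on the opposite strand, which stood at 5.27 ± 0.127 and 5.64 ± 0.238 FPKM (mean ± SD, n = 3 each) and was not called. Bad, which binds Bcl-xL, and Bbc3, which encodes Puma, had overlapping groups at means of 20.7 ± 0.870 and 19.3 ± 0.849 FPKM for Bad and 9.49 ± 1.20 and 8.47 ± 0.505 FPKM for Bbc3 (SD, n = 3 each). Exons of Bad overlap Gpr137 on the opposite strand, which was called lower. Bcl2l11, which encodes Bim, was the lowest of the tested members at 1.52, 1.51 and 1.44 FPKM against 1.76, 1.77 and 1.66 FPKM. Its groups do not overlap. The log2 fold change was 0.13, a scale on which the added 1 FPKM shrinks the changes of so low a gene (limma, adjusted p = 0.214). With 0.1 FPKM added instead, the change was 0.20 and was not called either (limma, adjusted p = 0.218).

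**Figure D2:**
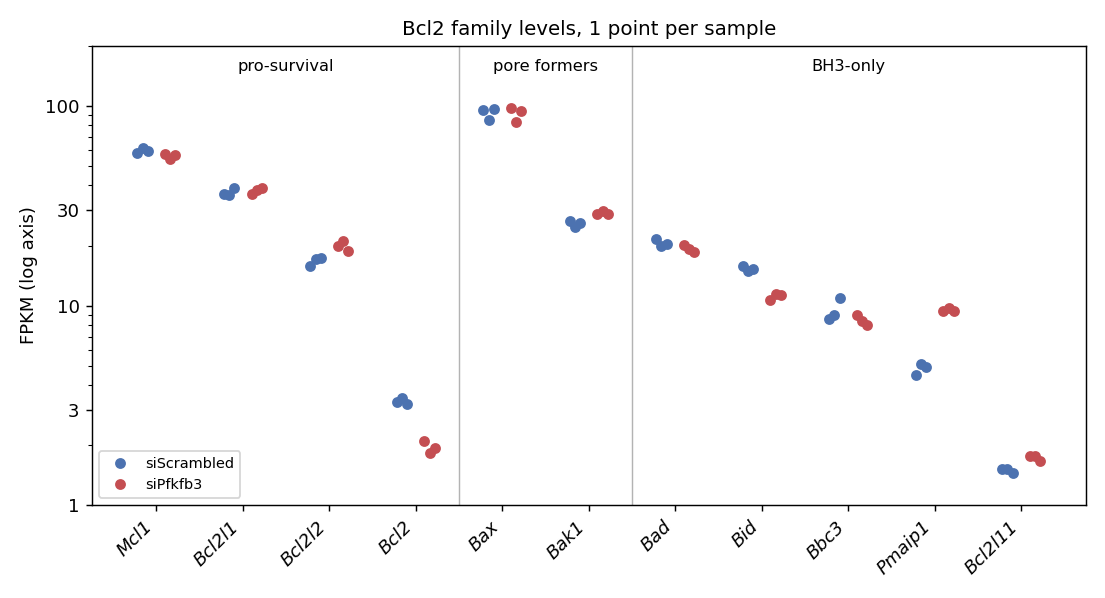
FPKM on a log axis for the 11 Bcl2 family members with a test, 1 point per sample (blue siScrambled, red siPfkfb3), by role. Pmaip1 lies higher in siPfkfb3, between 9.40 and 9.78 FPKM, and Bcl2 and Bid lie lower, while Mcl1, Bcl2l1 and Bax, the most abundant of them, were not called.

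Of the 2 pore formers, Bak1 was called and Bax was not, a share called of 50% against 36.3% of all tested genes. Bax, the pore former of the cytosol, stood at 94.96, 85.1 and 96.2 FPKM in siScrambled and at 97.4, 82.8 and 94.2 FPKM in siPfkfb3, with a log2 fold change of −0.01 (95% interval −0.17 to 0.15; limma, adjusted p = 0.918). The sign of so small a value turned positive under TPM, TMM and quantile scaling. Bak1 went from 26.4, 24.8 and 26.0 to 28.7, 29.6 and 28.9 FPKM, a rise of 0.17 ± 0.04 on the log2 scale (SE; limma, adjusted p = 0.0107). Exons of Bak1 overlap Ggnbp1 on the opposite strand, at 1.27 and 1.22 FPKM. Bak1 was the scarcer of the pair in every library. Bak1 over Bax ranged from 0.270 to 0.292 in siScrambled and from 0.295 to 0.358 in siPfkfb3.

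Of the 4 pro-survival Bcl2 genes, 1 was higher, 1 lower and 2 not called, a share called of 50% against 36.3% of all tested genes. In siScrambled, Mcl1 had the highest level, then Bcl2l1 (Bcl-xL), Bcl2l2 (Bcl-w) and Bcl2, with no overlap between neighbours in that order in either group. Bcl2 (chromosome 1, 106538178 to 106714274, minus strand) stood at 3.29, 3.43 and 3.21 FPKM in siScrambled and at 2.09, 1.82 and 1.94 FPKM in siPfkfb3. It fell by 41.1% in mean FPKM (log2 fold change −0.55 ± 0.07 SE; limma, adjusted p = 0.000382), and an antisense gene overlaps its exons. Bcl2l2 moved the other way, from 15.8, 17.2 and 17.3 to 19.8, 21.0 and 18.8 FPKM (log2 fold change 0.23 ± 0.06 SE; limma, adjusted p = 0.0102). Neither gene's groups overlap. Bcl2l2 shares exons with a readthrough gene on its strand, Gm20521, which is listed at 0.

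The 2 most abundant pro-survival genes were not called. Mcl1 stood at 58.3, 61.6 and 59.2 FPKM against 57.4, 54.3 and 56.9 FPKM, with a log2 fold change of −0.09 (95% interval −0.17 to 0.00; limma, adjusted p = 0.115). Bcl2l1 ranged from 35.9 to 38.8 FPKM over all samples (log2 fold change 0.02). The summed level of the 4 pro-survival genes was 117 ± 2.71 FPKM in siScrambled and 116 ± 0.562 FPKM in siPfkfb3 (SD, n = 3 each), of which Bcl2 was 3.31 and 1.95 FPKM. The 6 BH3-only genes summed to 52.0 ± 1.21 and 50.2 ± 1.14 FPKM, and Bax with Bak1 to 118 ± 6.88 and 121 ± 7.23 FPKM. In each of these 3 sums the groups overlap. Pmaip1 over Mcl1 was 0.0768 to 0.0834 in siScrambled and 0.164 to 0.180 in siPfkfb3, and Bcl2 over Bax was 0.0334 to 0.0403 and 0.0206 to 0.0219. Both ratios set a called gene over one that was not called, so their separation repeats the calls of Pmaip1 and Bcl2. These sums and ratios were not tested.

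Of the 4 caspases, Casp8 was lower and 3 were not called, a share called of 25% against 36.3% of all tested genes. Casp8, the initiator at death receptors, stood at 12.8, 12.99 and 12.6 FPKM in siScrambled and at 11.8, 9.59 and 11.5 FPKM in siPfkfb3, where replicate 2 is the low sample. The log2 fold change of −0.21 ± 0.07 (SE; limma, adjusted p = 0.0437) lost its call without siPfkfb3 replicate 2 or any 1 of the siScrambled replicates, under TPM and TMM scaling, without the filter, and without the trend and robust fit (adjusted p of 0.0552 to 0.109). Casp9, the initiator of the apoptosome (−0.12), Casp2, an initiator activated by the Pidd1 complex (−0.04), and the executioner Casp6 (−0.01) had overlapping groups, with log2 fold changes in parentheses. Casp6 changed sign under the same 3 scalings as Bax.

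Of the 4 genes of the apoptosome and its regulators, Apaf1, the scaffold, was called and the others were not. The share called was 25%, against 36.3% of all tested genes. Apaf1 stood at 8.58, 8.92 and 8.01 FPKM in siScrambled and at 10.4, 10.2 and 10.4 FPKM in siPfkfb3. It rose by 0.26 ± 0.06 on the log2 scale (SE; limma, adjusted p = 0.00574), with no overlap between the groups. Cycs, cytochrome c, stood at 21.6, 20.6 and 20.4 FPKM against 19.8, 19.4 and 18.9 FPKM (log2 fold change −0.10; limma, adjusted p = 0.102), and it has processed copies in the genome that could share its reads.

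Xiap, which inhibits caspases, went from 12.6, 14.3 and 12.8 to 14.7, 14.8 and 14.3 FPKM (log2 fold change 0.13; limma, adjusted p = 0.101, and 0.0240 without siScrambled replicate 2). Diablo, the mitochondrial antagonist of Xiap, had the widest spread of the 36 members: 16.7, 10.5 and 10.96 FPKM in siScrambled and 9.12, 8.69 and 10.3 FPKM in siPfkfb3. The first control stands apart, and the coefficient of variation in siScrambled was 27.1%, against a median of 4.29% over the members. The log2 fold change of −0.38 (95% interval −0.80 to 0.04) was not called (limma, adjusted p = 0.140), and it was −0.18 without siScrambled replicate 1. Exons of Diablo overlap 3 other annotated genes.

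**Figure D3:**
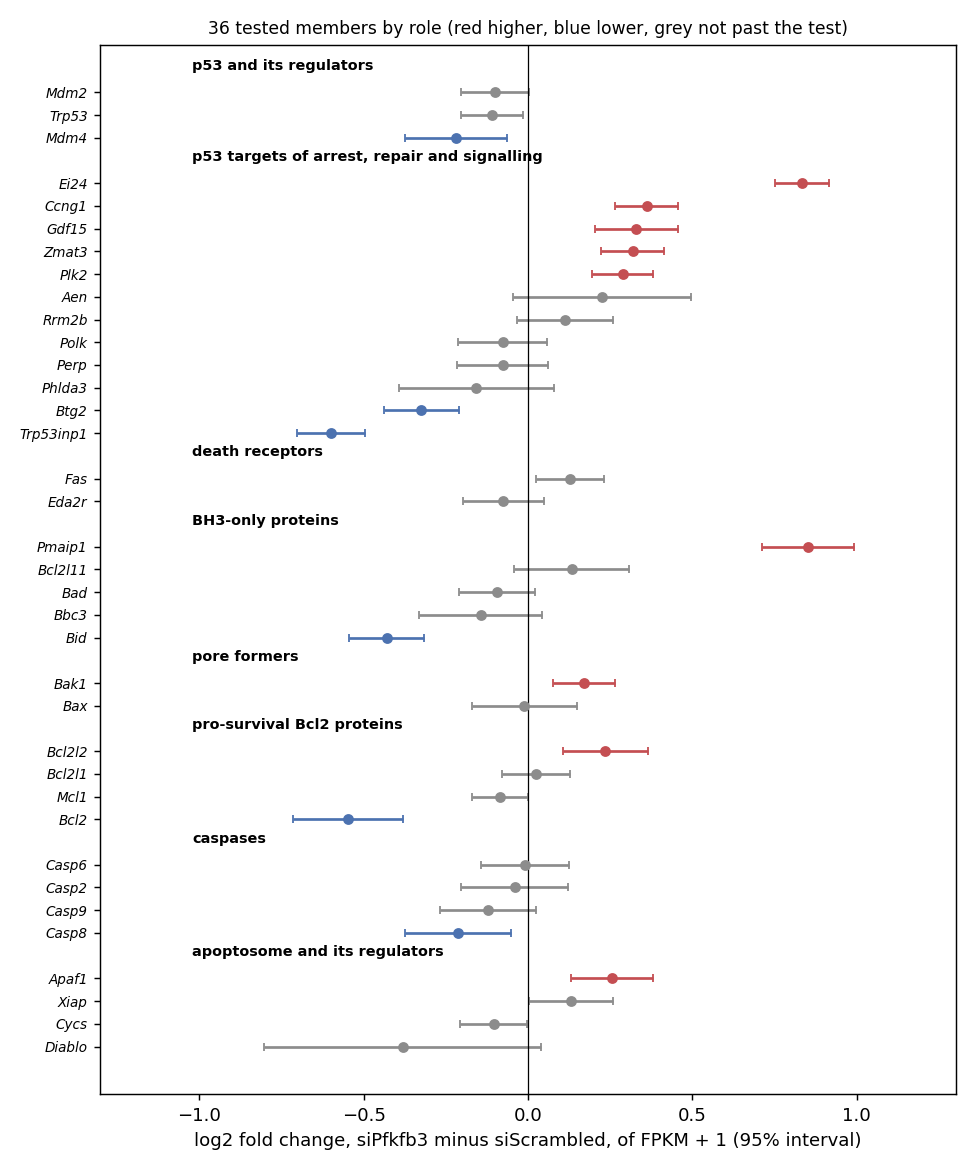
Log2 fold change of FPKM + 1, siPfkfb3 minus siScrambled, with the 95% interval of the limma fit, for the 36 tested members by role (red higher, blue lower, grey not past the test). Higher and lower calls occur together among the p53 targets, the BH3-only genes and the pro-survival genes, and Diablo has the widest interval.

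Read by side, 16 members act directly for death (the BH3-only genes, Bax, Bak1, Fas, the caspases, Apaf1, Cycs and Diablo) and 5 against it (the pro-survival Bcl2 genes and Xiap). Of the 15 pro-death genes tested, 3 were higher (Pmaip1, Apaf1 and Bak1), 2 lower (Bid and Casp8) and 10 not called, with a median log2 fold change of −0.04. Of the 5 pro-survival genes, 1 was higher (Bcl2l2), 1 lower (Bcl2) and 3 not called, with a median of 0.02. The shares called, 33.3% and 40.0%, lie on both sides of the 36.3% of all tested genes.

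Other genes of both pathways were read from lists written down by name. Of 18 tested p53 targets outside the 37, 3 were higher, 6 lower and 9 not called, with a median log2 fold change of −0.07. The share called was 50%, against 36.3% of all tested genes. Tigar, a fructose bisphosphatase, rose from 2.13 ± 0.223 to 3.24 ± 0.237 FPKM (SD, n = 3 each; log2 fold change 0.44; limma, adjusted p = 0.00282). Tnfrsf10b, a death receptor for TRAIL, rose from 15.4 ± 0.606 to 20.5 ± 1.03 FPKM (log2 fold change 0.39; limma, adjusted p = 0.000380). Sesn2, a stress protein that restrains mTORC1, fell from 24.6 ± 0.376 to 18.05 ± 0.272 FPKM (log2 fold change −0.43; limma, adjusted p = 5.01e-05), and Ephx1, an epoxide hydrolase, from 243 ± 5.65 to 182 ± 0.931 FPKM (log2 fold change −0.42; limma, adjusted p = 6.89e-06). Cdkn1a, the p21 inhibitor of cell division and the best known p53 target, is named after its values were seen: 126, 127 and 121 FPKM in siScrambled and 140.2, 138 and 142 FPKM in siPfkfb3 (log2 fold change 0.17 ± 0.03 SE; limma, adjusted p = 0.00336). Its promoter window was the one of the other lists with a full site. The lower genes of this list not yet named were Pidd1 (−0.36), Dram1 (−0.29), Gtse1 (−0.22) and Ppm1d (−0.20), as log2 fold changes.

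Of 25 tested apoptosis genes outside the 37, 5 were higher, 4 lower and 16 not called, a share near that of all tested genes. Dffa (chromosome 4, 149104146 to 149120647, plus strand), the inhibitor and chaperone of the nuclease that cuts DNA in apoptosis, changed most: 3.61, 3.19 and 3.09 FPKM in siScrambled and 7.46, 8.28 and 8.13 FPKM in siPfkfb3. The mean rose 2.41 times (log2 fold change 1.06 ± 0.07 SE; limma, adjusted p = 5.71e-06), while Dffb, the nuclease, stood at 1.101 ± 0.199 and 1.23 ± 0.421 FPKM and was not called. Cflar, an inhibitor of caspase-8, rose from 15.8 ± 0.764 to 20.3 ± 0.744 FPKM (log2 fold change 0.34; limma, adjusted p = 0.000738).

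Bok, a Bcl2 relative related to Bax, fell from 18.8 ± 1.05 to 12.2 ± 0.200 FPKM (log2 fold change −0.59; limma, adjusted p = 3.09e-05). Htra2, a mitochondrial protease, went from 16.6 ± 0.309 to 10.4 ± 0.645 FPKM (log2 fold change −0.63; limma, adjusted p = 2.57e-05), while Aup1 and Loxl3, which overlap its exons on the opposite strand, were both called higher. Birc5, survivin, an inhibitor of apoptosis protein of mitosis, fell from 20.0 ± 1.146 to 11.6 ± 0.765 FPKM (log2 fold change −0.73; limma, adjusted p = 2.16e-05). Beside Birc5, 8 of 8 cell cycle markers fell, with a sum of 133 to 144 FPKM in siScrambled and of 81.3 to 85.6 FPKM in siPfkfb3, and the part of cell division in the value of Birc5 was not tested. The calls of Casp12, a caspase of the endoplasmic reticulum (0.14), and of the death receptor adaptors Tradd (0.23) and Fadd (−0.22) were weak (limma, adjusted p = 0.0428, 0.0440 and 0.0479). Each call ended in 6 or more of the alternatives, with adjusted p of 0.0529 to 0.155 where they ended. Those of all 3 genes ended when siScrambled replicate 2, siScrambled replicate 3, siPfkfb3 replicate 1 or siPfkfb3 replicate 3 was left out, and those of Casp12 and Fadd also without siScrambled replicate 1.

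**Figure D4:**
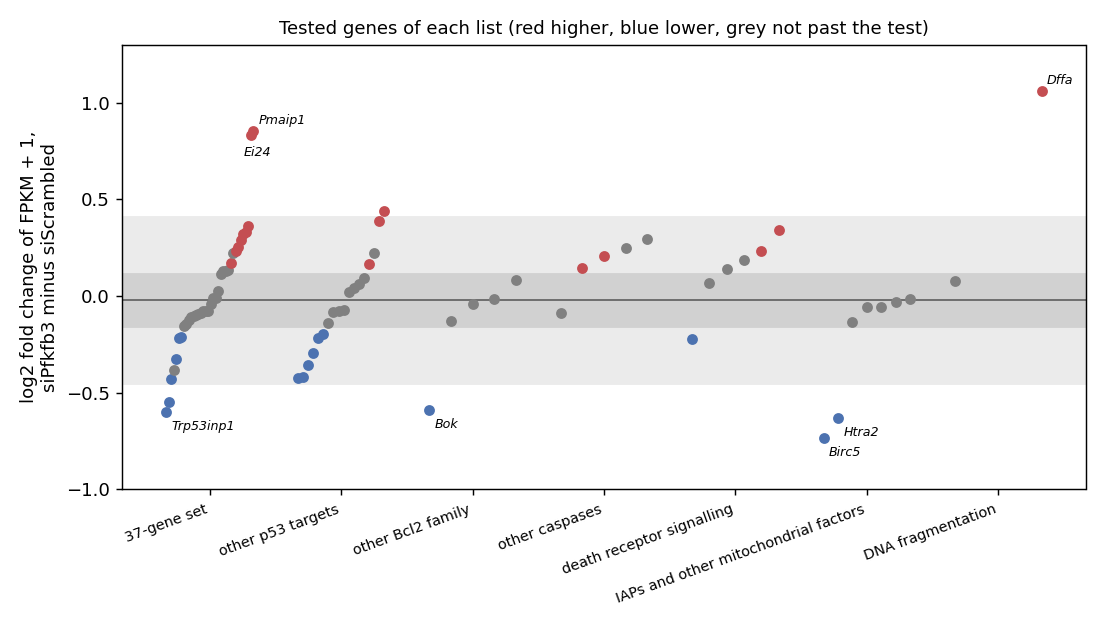
Log2 fold change of FPKM + 1, siPfkfb3 minus siScrambled, of each tested gene of the 37-gene set and of the other lists (red higher, blue lower, grey not past the test). Dark and light bands hold the 25th to 75th (−0.16 to 0.11) and the 5th to 95th percentile (−0.46 to 0.41) of all tested genes, with their median as a line; Dffa, Pmaip1, Ei24 and Tigar lie above the bands, and Birc5, Htra2, Trp53inp1, Bok and Bcl2 below.

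Interferon response genes were higher in the same samples: 8 of 8 markers rose, with a sum of 222 to 348 FPKM in siScrambled and of 723 to 995 FPKM in siPfkfb3. Fas, Casp8 and Pmaip1 are known as interferon-responsive in some cells, and the part of the interferon response in their values was not tested.

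A search of these same fold changes had singled out heptamers in 3′ UTRs, of which 4 were looked up here, so the counts are a description and no independent evidence. The heptamer CGGAGAA, its neighbour in register TCGGAGA, or the unrelated TGTCACG occurs in the longest annotated 3′ UTR of 6.87% of 10854 tested genes, of 13.2% of those called higher and of 3.85% of those called lower. Of the members, 2 of the 9 higher (Ei24 and Zmat3), 0 of the 6 lower and 1 of the 21 not called (Bbc3) hold one. Of the other lists, Dffa and Tigar, which rose, Birc5, which fell, and Ak1, which was not called, hold one too. GAAGAAC occurs in 10.9% of the tested genes, in 17.6% of those called lower and in 7.75% of those called higher. In those not called it occurs in 9.57%. Of the members, 1 of the 6 lower (Bcl2), 1 of the 9 higher (Ccng1) and 4 of the 21 not called (Polk, Eda2r, Cycs and Diablo) hold GAAGAAC. In the other lists this heptamer occurs in Ppm1d and Htra2, which fell, and in Tigar, which rose. The heptamers are shown in capitals with up to 10 bases on each side, for 4 genes that rose and for Bcl2, which fell. Sites that go the other way are not shown, namely TGTCACG in Birc5 and GAAGAAC in Ccng1 and Tigar. In Ei24 only TCGGAGA is in capitals, at position 705 of the 3′ UTR, and the overlapping CGGAGAA begins at 706. On the log2 scale Ei24 rose by 0.83, Dffa by 1.06, Tigar by 0.44 and Zmat3 by 0.32. Pmaip1, with a rise of 0.85, holds none of the 4 heptamers. The part of these heptamers in the changes was not tested.
Ei24: catagtatgcTCGGAGAatctgaacct
Zmat3: tccagtcatgTCGGAGAgaactgcggt
Dffa: ccaaacCGGAGAAgacgggcttt
Tigar: ttagaagcagCGGAGAAttcatgtgtt
Bcl2: aagtaacgatGAAGAACacagacattt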

How the data were processed

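The authors deposited FPKM, 1 column per sample, so named in the file header. The submitters' processing notes name HISAT2 as a tool and GRCm38 and mm10 as builds. For the version of HISAT2, the counting program, strand use and annotation, the sources used here give nothing. Depth is unknown, so no count test or counting interval is given. Group and replicate came from the sample titles. Of 24970 rows, 22036 are Ensembl genes, 22022 of them with a symbol.

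Genes whose mean over the 6 samples reached 1 FPKM, 11240 in all, were tested on log2(FPKM + 1), a pseudocount of 1, with limma 3.58.1 in R 4.3.3 (intensity trend, robust fit, two-sided, Benjamini-Hochberg adjusted p under 0.05 over all tested genes). A positive fold change means higher in siPfkfb3. The fit was first tested on simulated data for 11240 genes. It recovered 85 of 100 genes raised by 0.3 and 100 of 100 raised by 0.6 on the log2 scale, and called 9 unchanged genes. Smaller changes, falls and a share of changed genes as large as here were not simulated. The 37 members, the other lists and the heptamers were chosen with earlier results of these data known. Every member is accounted for. Values in every sample are given for members past the threshold and, where a role has none, for its highest member, and from each other list up to 4 genes past the threshold with the largest change. A gene that this rule names is not reported here. Genes named beyond that include the remaining members, given for completeness. The others are the overlapping genes and the non-members Cdkn1a, Pidd1, Dram1, Gtse1, Ppm1d, Dffb and Ak1, chosen after their values were seen. Positions, exons and 3′ UTRs (of at least 30 bases) are from GENCODE M21 on GRCm38, and promoters from RefSeq on GRCm38.p6. Exons of 10 members overlap another gene, 5 of them called. There were 15 alternative settings, for the pseudocount, filter, scaling, variance model, replicate block and single libraries. Other steps used Python 3.11.15, pandas 2.3.3, scipy 1.17.1 and matplotlib 3.10.9.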

Additional observations from a re-analysis of the deposited data

How the results depend on the processing

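Across the 15 alternatives, 9 or 10 members were higher and 4 to 6 lower. Leaving out 1 library at a time gave 9 to 10 higher and 4 to 5 lower, and over all tested genes 1451 to 1637 higher and 1881 to 2064 lower. In the same fits 8 to 9 of the other p53 targets and 6 to 10 of the other apoptosis genes were called, and the change of Pfkfb3 was −0.88 to −0.80. Of the 15 called members, 13 kept their call in every alternative that tested them, and the exceptions were Mdm4 and Casp8. Bax turned from −0.01 to 0.011 under TPM, 0.013 under TMM and 0.018 under quantile scaling and ranged from −0.066 to 0.058 without 1 library. Casp6 turned from −0.01 to 0.012, 0.014 and 0.0067 under the same scalings and ranged from −0.058 to 0.032. Neither gene was called in any of them. Deviations of same-numbered samples correlated at −0.114, 0.0598 and 0.0550, and those of differently numbered samples at −0.160 to 0.120. With so few samples, these values cannot decide whether the replicate numbers pair the samples. With the replicate block 10 members were higher, now including Aen (limma, adjusted p = 0.0373), and 6 lower, and 1680 genes in all were higher and 2227 lower. Trimmed-mean (TMM) factors were computed on the deposited values with equal weights. Depth is unknown, so the counting error of low genes such as Bcl2l11, Bcl2 and Tigar cannot be given.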
